A study of Mus musculus with 6 samples.

Results

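The genes described here are 39 transcripts of the unfolded protein response and of the ATF4 branch of the stress response, out of 51826 genes in the deposited tables. They were taken from a fixed list of symbols, and each was matched to a single Ensembl number. All 39 are protein-coding, and all 39 were among the 14652 genes with enough reads to test. By role they comprise 15 chaperones and folding enzymes of the endoplasmic reticulum (ER), 4 genes of ER-associated degradation, 3 stress sensors with the transcription factor gene Xbp1, 6 regulators of the ATF4 branch, 6 amino-acid genes driven by ATF4, and 4 other stress targets of ATF4.

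RNA was sequenced from mouse embryonic fibroblasts (MEFs), connective-tissue cells grown out of embryos, on a C57BL/6 background and at passages given as P2-5 for every culture. The wild-type group (Lztr1 +/+) held cultures 10, 12 and 16, and the heterozygous group (Lztr1 +/-) held cultures 11, 15 and 18. LZTR1 is an adaptor through which a CUL3 ubiquitin ligase recognises RAS proteins. All cultures grew in DMEM with glutamine on uncoated plastic, and the labels name no agent that induces ER stress. The sources used here do not give the structure of the Lztr1 allele. Nothing in the labels ties cultures to separate embryos. A p-value therefore sets the genotype difference only against the spread among these cultures, part of which may be technical.

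When unfolded protein builds up in the ER, the sensors IRE1 (gene Ern1), ATF6 and PERK (gene Eif2ak3) are activated. IRE1 splices Xbp1 messenger RNA and ATF6 is cut to release a transcription factor, and both routes raise chaperones and degradation genes. PERK phosphorylates eIF2-alpha, which lowers protein synthesis while favouring translation of ATF4. Other kinases feed into the same step when amino acids are scarce, so ATF4 targets can move without ER stress. Fibroblasts secrete large amounts of collagen and carry a high load of ER chaperones.

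Library totals lay between 11025286 and 21885101 expected counts, with heterozygous culture 11 the deepest. Lztr1 fell from 90.4 ± 6.21 CPM, counts scaled to library size, in wild-type to 44.9 ± 1.01 CPM in heterozygous cultures (SD, n = 3 each), and edgeR's quasi-likelihood test gave a log2 difference of -1.01 (SE 0.066, adjusted p = 0.00457). All 15 fibroblast markers were present, with a summed level of 34574 and 34796 CPM in wild-type cultures 10 and 12, 27904 CPM in wild-type culture 16, and 27918, 30867 and 29465 CPM in heterozygous cultures 11, 15 and 18. The sum in wild-type culture 16 was thus the lowest of all and next to those of the heterozygous cultures. Dcn, which encodes the matrix proteoglycan decorin, was at 159, 153 and 79.4 CPM against 84.9, 84.9 and 80.6 CPM in the same order. Col1a1, the largest part of the sum, had the same split, at 11270, 11319 and 8753 against 8088, 9398 and 8844 CPM. Not every marker was lower in this way. Fn1 was at 5010, 5138 and 4186 against 5271, 4910 and 4900 CPM. Vim was higher in wild-type culture 16, at 3093, 2894 and 3628 against 3606, 3939 and 3459 CPM. Summed erythroid markers (9 genes, 2 of them under 1 CPM throughout) were 40.2, 30.9 and 119 CPM in the wild-type cultures (10, 12, 16) and 64.8 to 130 CPM in heterozygous cultures. Macrophage and blood markers (11 genes) summed to 226 to 324 CPM against 186 to 354 CPM, epithelial markers (10) to 116 to 211 against 119 to 263, and endothelial markers (9) to 32 to 42.5 against 38.5 to 51.0, wild-type first. Neural and Schwann markers (11) gave 610 to 707 against 662 to 855 CPM and skeletal muscle markers (10) gave 571 to 800 against 527 to 701 CPM. Of 10 markers of secretory cells, 6 were under 1 CPM in every culture, but the fetal liver gene Afp stood between 192 CPM in wild-type culture 10 and 608 CPM in heterozygous culture 18. The part of other cell types in the results below was not tested, and in RNA from whole cultures fewer cells of a type and less RNA per cell cannot be told apart. The cultures are numbered in 2 runs, 10 to 12 and 15 to 18, and 11 and 16 were registered after the other 4. Neither is called a batch in the labels, but differences within the runs are printed for the members the results turn on, and within registration for some of them. Wild-type cultures held 2 female and 1 male culture and heterozygous cultures 1 female and 2 male, judged by Y-linked transcripts.

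None of the 39 genes passed the test between genotypes. In edgeR 0 of 39 had an adjusted p under 0.05, where the whole table had 1 gene, Lztr1, or 0.00683% of those tested. DESeq2 also called 0 of the 39 and gave no adjusted p for 6 of them, against 1.92% of all genes for which it gave one. At an unadjusted p under 0.05 in edgeR, 8 of 39 genes (20.5%) were lower in heterozygous cultures, beside 6.65% of all genes, and 1 of 39 (2.56%) was higher, beside 5.56%. The 8 were Trib3, Eif2ak3, Atf5, Nupr1, Syvn1, Ddit4, Herpud1 and Chac1, and the 1 was Atf6. Every heterozygous culture lay below every wild-type culture for 6 of 39 genes (15.4%), beside 9.97% of all genes, and above for 1 (2.56%), beside 7.75%. The fitted log2 difference, heterozygous minus wild-type, ran from -0.58 to 0.21 over the 39 genes with a median of -0.039, and its median over all genes tested was -0.0018.

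**Figure D1:**
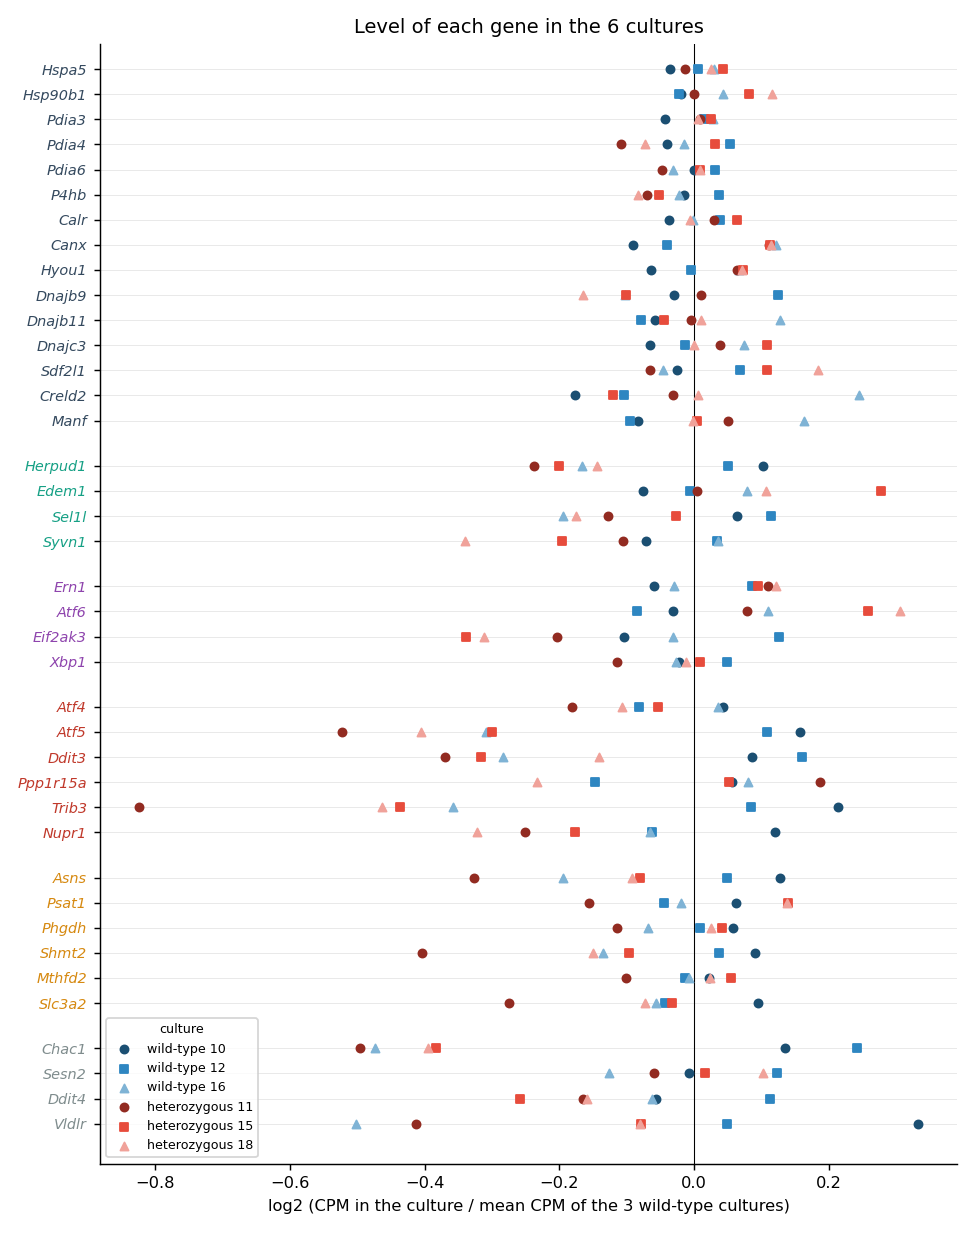
Level of each of the 39 genes in each culture, as log2 of its CPM over the mean of the 3 wild-type cultures (0 on the horizontal axis). Gene names are coloured by role, blue marks are wild-type and red marks heterozygous cultures. The chaperones at the top cluster near 0, while for Trib3, Atf5 and Chac1 wild-type culture 16 lies away from wild-type cultures 10 and 12 and near the heterozygous cultures.

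The roles differed widely in level. On the length-scaled TPM scale, which allows genes to be compared, wild-type means of the chaperone group ran from 18.2 ± 2.16 TPM for Dnajb9 to 1707 ± 75.9 TPM for Calr, the calcium-binding lectin chaperone calreticulin (SD, n = 3). Next in order were Hspa5 at 1196 ± 43.6 TPM, Hsp90b1 at 1026 ± 17.7 TPM and P4hb at 980 ± 58.6 TPM. The means of the last pair were closer than the SD of P4hb, though Hsp90b1 was above P4hb in each of the 6 cultures. The sensors stood far lower, with Ern1 at 4.42 ± 0.248, Atf6 at 12.1 ± 0.365 and Eif2ak3 at 16.7 ± 2.06 TPM, whereas Xbp1 reached 114 ± 8.63 TPM. In the ATF4 branch, Atf4 itself was the most abundant at 438 ± 15.6 TPM. The 6 amino-acid genes lay between 96.0 ± 4.38 TPM for Mthfd2 and 276 ± 21 TPM for Phgdh.

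**Figure D2:**
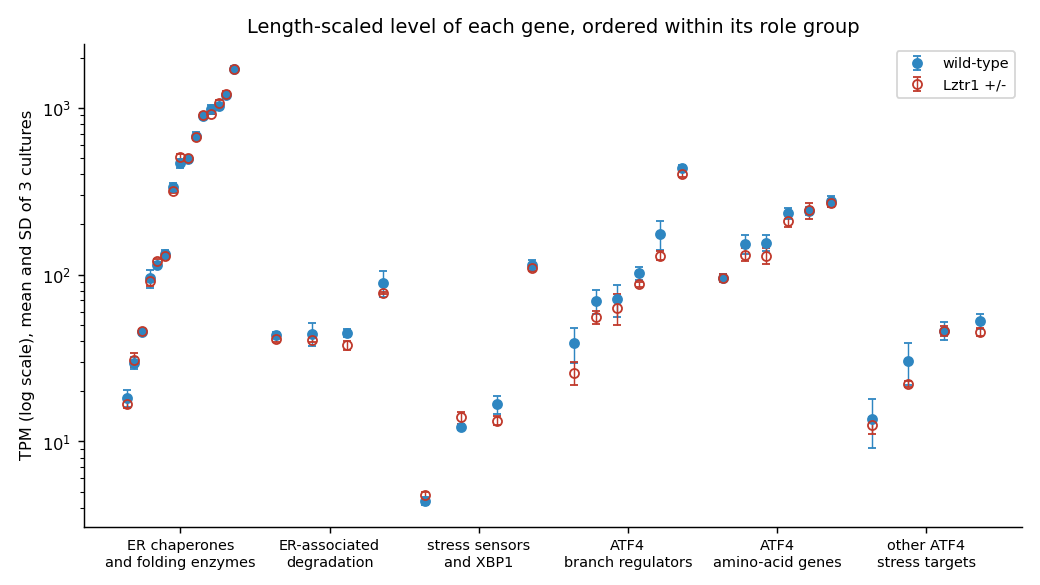
TPM of each gene on a log axis, ordered within its role group, as mean and SD of 3 wild-type (filled blue) and 3 heterozygous cultures (open red). Chaperone genes span 18.2 to 1707 TPM in wild-type cultures, and the heterozygous mean sits close to the wild-type mean for most genes.

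ER chaperones and folding enzymes showed nearly the same level in all 6 cultures. Of 15 genes 9 had a higher and 6 a lower heterozygous mean, with a median log2 difference of 0.018 and single values from -0.079 to 0.11. All 15 fitted differences were within 1.1-fold, and 0 of 15 had an unadjusted p under 0.05 in edgeR. The spread was small as well. The median log2 range over the 6 cultures was 0.16 in this group, against 0.40 over all genes tested, which were not matched to it for level. Among the 50 further genes of ER folding, translocation and degradation described below it was 0.19. The median difference of the 15 was -0.0056 when libraries were scaled by their totals and -0.00077 without wild-type culture 10, so its sign carries no weight.

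Hspa5 encodes BiP, the Hsp70 chaperone of the ER lumen that also holds the sensors inactive. Its level was 1415, 1457 and 1481 CPM in the wild-type cultures (10, 12, 16) and 1437, 1496 and 1477 CPM in heterozygous cultures 11, 15 and 18. The groups overlapped, and the log2 difference was 0.019 (SE 0.053). It was -0.0056 when libraries were scaled by their totals alone. Canx, the membrane lectin chaperone calnexin, measured 725, 750 and 840 CPM in the wild-type and 834, 834 and 835 CPM in the heterozygous group. Wild-type culture 16 stood at the heterozygous level, so the groups overlapped at a log2 difference of 0.11 (SE 0.068, adjusted p = 0.520 by edgeR). P4hb, a protein disulfide isomerase that is also a subunit of collagen prolyl hydroxylase, was at 1575, 1631 and 1566 CPM against 1515, 1534 and 1501 CPM. Here every heterozygous culture lay below every wild-type culture, though only by a log2 difference of -0.069 (SE 0.052, adjusted p = 0.611). Hyou1, a large Hsp70-related chaperone, measured 274, 286 and 300.2 CPM in wild-type and 299.7, 301 and 301 CPM in heterozygous cultures, at a log2 difference of 0.069 (SE 0.056). Wild-type culture 16 again sat among the heterozygous cultures.

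The other 11 genes of the group overlapped between genotypes. They are the Hsp90 of the ER (Hsp90b1), calreticulin (Calr), the disulfide isomerases Pdia3, Pdia4 and Pdia6, the J-domain co-chaperones Dnajb9, Dnajb11 and Dnajc3, and Sdf2l1, Creld2 and Manf, which are induced in ER stress. Creld2 varied most among all 15, from 59.7 and 62.8 CPM in wild-type cultures 10 and 12 to 79.9 CPM in wild-type culture 16, with 62.1 to 67.8 CPM in heterozygous cultures. Manf was also highest in wild-type culture 16, at 181, 179 and 214 CPM in the wild-type cultures, with 191 to 198 CPM in heterozygous cultures. For both genes the culture that stood apart was wild-type culture 16, and all 3 heterozygous cultures lay below it.

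Promoters were searched because these genes are known to share a control element. The ER stress element ERSE, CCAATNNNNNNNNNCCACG, was searched on both strands of RefSeq windows (GRCm38.p6) reaching from 250 bases before to 50 bases after each annotated start. It was present in 8 of the 36 members that had a window, and in 0.137% of all 27025 genes with windows. A match describes letters in a window and does not show binding. The matches are given in the direction of the element, with its fixed ends in capitals, to show what these promoters share:
Hspa5: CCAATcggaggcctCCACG
Hsp90b1, upstream copy: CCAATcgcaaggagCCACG
Hsp90b1, downstream copy: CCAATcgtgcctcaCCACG
Calr: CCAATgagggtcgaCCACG
Canx: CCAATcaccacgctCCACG
Pdia6: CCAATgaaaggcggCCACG
Dnajc3: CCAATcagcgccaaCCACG
Creld2: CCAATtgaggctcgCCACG
Syvn1: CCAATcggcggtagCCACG

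Of these 8 genes 7 are chaperones or folding enzymes, and the eighth, Syvn1, belongs to ER-associated degradation. Their log2 differences had a median of 0.024 and ran from -0.21 for Syvn1 to 0.11 for Canx, with 5 above and 3 below 0. The element alone therefore did not go with one direction among these members. The shorter form ERSE-II, ATTGGNCCACG, was found in Dnajb11 and Herpud1 and in 0.0444% of all genes. The core of the XBP1-bound element, TGACGTGG, was in 0 of the 36 members and in 0.714% of all genes, which says only that these letters are absent from windows of this size.

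Genes of ER-associated degradation, which export misfolded protein to the proteasome, went in both directions. Of 4 genes 3 had a lower heterozygous mean, 2 of them at an unadjusted p under 0.05. Syvn1, the membrane ubiquitin ligase HRD1, measured 75.6, 81.4 and 81.5 CPM in the wild-type group and 73.9, 69.4 and 62.8 CPM in heterozygous cultures 11, 15 and 18. The groups did not overlap. The log2 difference was -0.21 (SE 0.072, unadjusted p = 0.0210, adjusted p = 0.341 by edgeR), with -0.086 within cultures 10 to 12 and -0.30 within 15 to 18. Exons of Syvn1 overlap those of Mrpl49 on the other strand, and strand use in counting is not given, so its counts are uncertain. Herpud1, a membrane protein that assembles the ligase complex, had 89.9 and 86.8 CPM in the wild-type pair 10 and 12, 74.7 CPM in wild-type culture 16, and 71.1, 73.0 and 75.8 CPM in heterozygous cultures. Wild-type culture 16 fell inside the heterozygous range, and the log2 difference of -0.20 (SE 0.076, adjusted p = 0.376) was -0.31 within cultures 10 to 12 and -0.0063 within 15 to 18. By registration it was -0.25 in the earlier cultures and -0.071 in the later pair. Sel1l, the partner of HRD1, was at 137 CPM in wild-type culture 16, below the 139 to 154 CPM of the heterozygous cultures, and at 164 and 170 CPM in the other wild-type cultures.

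Edem1, a lectin that hands misfolded glycoproteins to the degradation machinery, depended on how length was treated. Its CPM values were 92.8, 97.4 and 103 in wild-type and 98.2, 119 and 105 in heterozygous cultures, a log2 difference of 0.13 (SE 0.080). On the TPM scale it was 42.2, 42.3 and 45.5 against 39.6, 43.0 and 41.1, and the difference became -0.072 with TPM and -0.055 with effective length as an offset. The effective length that RSEM estimated for Edem1 was 3631, 3888 and 3545 bases in wild-type and 4024, 4384 and 4197 bases in heterozygous cultures, so the lengths did not overlap. Effective length of a gene depends on which of its transcripts RSEM assigned the reads to, and transcript levels were not analysed here.

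Herpud1 and Syvn1 illustrate the promoter elements in full, as the members with values given here that had the smallest p among those whose element lies before the start and outside annotated exons. Each line gives the 250 bases before the start, 5′ to 3′ on the strand of the gene. Capitals mark ERSE in Syvn1 (GRCm38.p6, chr19:6046326-6046575, plus strand), and in Herpud1 (chr8:94386179-94386428, plus strand) an element called CARE, described further on, followed by ERSE-II:
Syvn1: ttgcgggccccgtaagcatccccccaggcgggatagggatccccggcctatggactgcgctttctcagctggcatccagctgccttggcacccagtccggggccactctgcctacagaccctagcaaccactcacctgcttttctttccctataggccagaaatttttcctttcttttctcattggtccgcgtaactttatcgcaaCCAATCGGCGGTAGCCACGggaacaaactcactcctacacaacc
Herpud1: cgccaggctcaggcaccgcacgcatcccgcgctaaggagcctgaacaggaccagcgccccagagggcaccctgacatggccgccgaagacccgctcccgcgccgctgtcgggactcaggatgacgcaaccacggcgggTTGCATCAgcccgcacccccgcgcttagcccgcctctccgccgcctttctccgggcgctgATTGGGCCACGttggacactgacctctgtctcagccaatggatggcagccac

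The sensors did not move together. Eif2ak3, which encodes the kinase PERK, measured 38.8, 45.5 and 40.8 CPM in wild-type and 36.2, 33.0 and 33.6 CPM in heterozygous cultures. All heterozygous values lay below all wild-type values, with a log2 difference of -0.28 (SE 0.081, unadjusted p = 0.00829, adjusted p = 0.313 by edgeR). It came to -0.21 for cultures 10 to 12, -0.29 for 15 to 18, -0.34 among the cultures registered earlier and -0.17 in the later pair. Exons of Eif2ak3 overlap those of Gm43292 on the other strand, which makes its counts uncertain as for Syvn1. Atf6, the sensor that is itself a transcription factor, was at 51.2, 49.3 and 56.5 CPM in wild-type and at 55.3, 62.6 and 64.7 CPM in heterozygous cultures. Wild-type culture 16 was above heterozygous culture 11, and the log2 difference was 0.21 (SE 0.082, unadjusted p = 0.0308, adjusted p = 0.368). For Atf6 this was 0.14 within cultures 10 to 12 and 0.17 within 15 to 18. By registration the sign differed, at 0.34 in the earlier cultures and -0.032 in the later pair. Ern1, encoding IRE1, was at 16.1, 17.9 and 16.5 CPM against 18.2, 17.98 and 18.3 CPM, the 1 member in which every heterozygous culture was higher, at a log2 difference of 0.11 (SE 0.086, adjusted p = 0.627). The closest values nearly touched, at 17.86 CPM in wild-type culture 12 and 17.98 CPM in heterozygous culture 15. Xbp1, the target of IRE1, stood at 125, 131 and 124 CPM against 117, 128 and 126 CPM and overlapped at -0.039 (SE 0.056). Gene-level values do not show whether Xbp1 was spliced.

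The ATF4 branch regulators were the group with the lowest median, at a log2 difference of -0.26 over 6 genes. Of these 5 had a lower heterozygous mean and 3 an unadjusted p under 0.05, and none passed the adjusted test. Atf4, the transcription factor at the centre of the branch, is controlled largely by translation. Its messenger RNA was at 419, 385 and 417 CPM in wild-type and 359, 392.1 and 378 CPM in heterozygous cultures. Heterozygous culture 15 lay above wild-type culture 12, and the log2 difference was -0.11 (SE 0.063, adjusted p = 0.489 by edgeR).

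Trib3, a pseudokinase induced by ATF4 and CHOP that acts back on ATF4, had the lowest difference of all 39 genes. Trib3 (ENSMUSG00000032715.9, mm10, chromosome 2, 152337422 to 152344032, minus strand) stood at 49.1, 44.9 and 33.0 CPM in wild-type and 23.9, 31.3 and 30.7 CPM in heterozygous cultures. The groups did not overlap, but wild-type culture 16 was nearer to the heterozygous cultures than to wild-type culture 10. The log2 difference was -0.58 (SE 0.16), 67.0% of the wild-type level, with an unadjusted p of 0.00686 and an adjusted p of 0.313 by edgeR. It was -0.97 within cultures 10 to 12 and -0.092 within 15 to 18. Among the cultures registered earlier it was -0.60, and in the later pair -0.46.

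Atf5, a transcription factor related to ATF4 (ENSMUSG00000038539.15, chromosome 7, 44812256 to 44816658, minus strand), stood at 191, 185 and 138 CPM in wild-type and 119, 139 and 129 CPM in heterozygous cultures. Wild-type culture 16 lay inside the heterozygous range. The log2 difference was -0.41 (SE 0.12, unadjusted p = 0.00960, adjusted p = 0.315), and it was -0.66 within cultures 10 to 12 against -0.043 within 15 to 18. By registration it was -0.48 and -0.21, earlier cultures first. Exons of Atf5 overlap those of Il4i1 and Nup62 on the other strand, and since strand use in counting is not given its counts are uncertain. Ddit3 encodes CHOP, the factor tied to cell death in prolonged ER stress. It was at 28.6, 30.1 and 22.2 CPM against 20.9, 21.7 and 24.5 CPM, so wild-type culture 16 again joined the heterozygous cultures, at a log2 difference of -0.28 (SE 0.13, adjusted p = 0.429). Its exons overlap a second gene model of the same name on the same strand and Mars and Gm4189 on the other strand, which makes the counts uncertain too.

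Nupr1, a small stress-induced chromatin protein, was at 41.1, 36.2 and 36.2 CPM in wild-type and at 31.8, 33.5 and 30.3 CPM in heterozygous cultures. The groups did not overlap. The log2 difference of -0.25 (SE 0.079, unadjusted p = 0.0134, adjusted p = 0.321) was -0.28 within cultures 10 to 12 and -0.18 within 15 to 18, and wild-type culture 16 did not stand apart for this gene. Ppp1r15a, encoding the phosphatase subunit GADD34 that reverses eIF2-alpha phosphorylation, ranged from 67.8 to 79.4 CPM in wild-type and from 63.9 to 85.4 CPM in heterozygous cultures, with a log2 difference of 0.017 (SE 0.11).

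**Figure D3:**
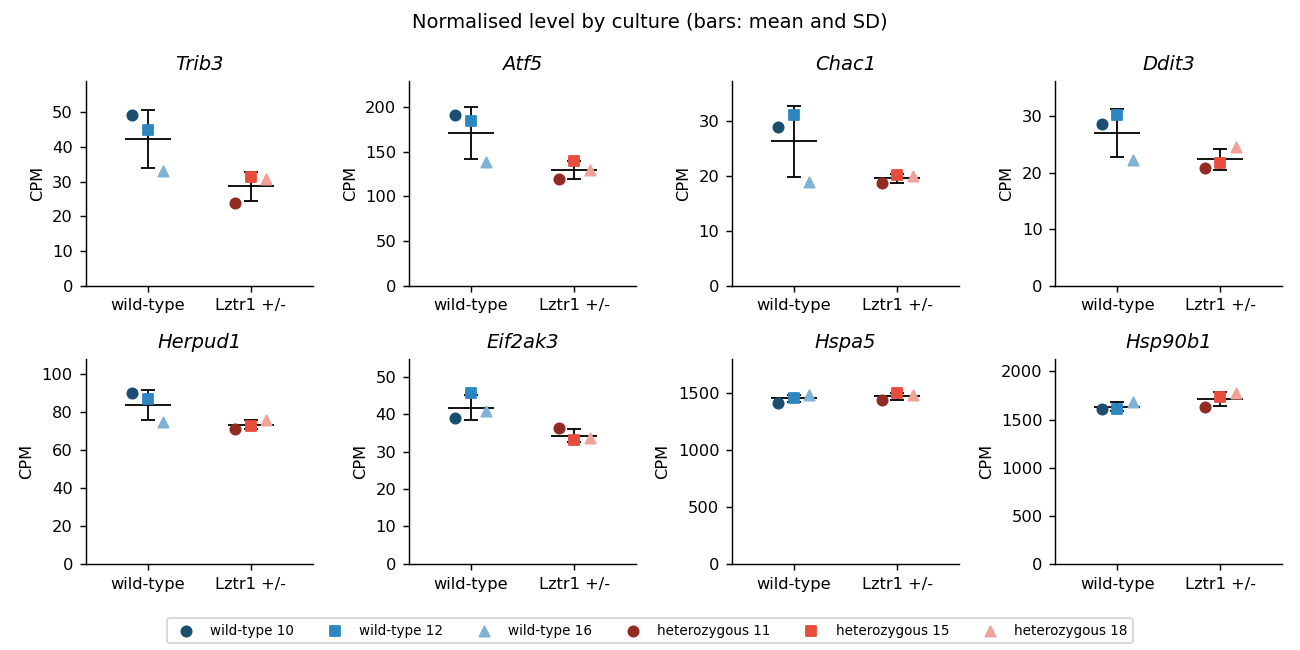
CPM of 8 genes in each culture, with the mean and SD of 3 cultures per genotype, on axes that start at 0. For Trib3, Atf5, Chac1, Ddit3 and Herpud1 wild-type culture 16 (light blue triangle) sits below wild-type cultures 10 and 12, at 33.0, 138, 19.0, 22.2 and 74.7 CPM, while Hspa5 and Hsp90b1 are level across cultures.

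The amino-acid genes of the ATF4 branch had a median difference closer to 0 than its regulators, a gap that was not tested. Of 6 genes 5 had a lower heterozygous mean, with a median log2 difference of -0.070, values from -0.21 to 0.046 and none at an unadjusted p under 0.05. The groups overlapped for all 6. Shmt2, a mitochondrial serine hydroxymethyltransferase that feeds one-carbon metabolism, was at 193, 186 and 165 CPM in wild-type and 137, 169 and 163 CPM in heterozygous cultures, a log2 difference of -0.21 (SE 0.094, adjusted p = 0.416 by edgeR). Asns, which makes asparagine, was at 179, 170 and 143 CPM against 131, 155 and 154 CPM, at -0.16 (SE 0.099). Slc3a2, the heavy chain shared by several amino-acid transporters, was at 234, 213 and 211 CPM against 181, 215 and 209 CPM, at -0.12 (SE 0.079). The serine synthesis genes Phgdh and Psat1 and the mitochondrial folate enzyme gene Mthfd2 differed by -0.015, 0.046 and -0.0072. Heterozygous culture 11 was the lowest of the 6 cultures for all 6 genes, as it was for 12.3% of all genes tested. Culture 11 is also the deepest library and was registered later, and the part of either in its low values was not tested. Without heterozygous culture 11 the median over the 6 genes was -0.011.

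Among the other stress targets Chac1, an enzyme that breaks down glutathione, had 28.9 and 31.1 CPM in the wild-type pair 10 and 12 but 19.0 CPM in wild-type culture 16. The heterozygous cultures stood at 18.7, 20.2 and 20.02 CPM. Chac1 (ENSMUSG00000027313.3, chromosome 2, 119351229 to 119354381, plus strand) thus had 1 wild-type culture within the heterozygous range, and its log2 difference of -0.43 (SE 0.17, unadjusted p = 0.0343, adjusted p = 0.377 by edgeR) was -0.68 within cultures 10 to 12 and 0.084 within 15 to 18. By registration it was -0.57 in the earlier cultures and -0.022 in the later pair. Ddit4, an inhibitor of mTORC1 also known as REDD1, was at 47.6, 53.6 and 47.4 CPM in wild-type and 44.2, 41.4 and 44.4 CPM in heterozygous cultures. Its groups did not overlap, at -0.19 (SE 0.072, unadjusted p = 0.0273, adjusted p = 0.364), with -0.19 and -0.15 within the runs. Vldlr, a lipoprotein receptor, was the most variable of these genes among wild-type cultures, at 44.9, 36.9 and 25.2 CPM, and was 26.8, 33.8 and 33.7 CPM in heterozygous cultures. The difference in Vldlr was -0.60 within cultures 10 to 12 and 0.42 within 15 to 18. Sesn2, a leucine-sensing inhibitor of mTORC1, differed by 0.019 (SE 0.076).

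The C/EBP-ATF response element (CARE), through which ATF4 acts, was searched by its core TGATGNAA in the same windows. It was found in 6 of the 36 members, and in 4.51% of all genes. The matches, in the direction of the element with the fixed letters in capitals, are shown because all but 1 belong to the ATF4 roles:
Trib3: TGATGtAA
Chac1: TGATGcAA
Nupr1: TGATGcAA
Asns: TGATGaAA
Vldlr: TGATGcAA
Herpud1: TGATGcAA

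The log2 differences of these 6 genes ran from -0.58 to -0.16 with a median of -0.22, and 6 of 6 were below 0. Among all 16 genes of the ATF4 roles 13 were below 0, as were 24 of the 39 members, and Vldlr turned to 0.017 without wild-type culture 10. The core is short and 5 of the 6 matches lay on the opposite strand of the window, so with the given strand alone 1 member, Asns, held it. In Trib3 the match lies 15 bases after the RefSeq start, though before the start in the gene coordinates given above. In Nupr1 the window is also an exon of a longer transcript. For both, only the element with 11 bases on each side is given, with the element in capitals as it reads on the gene's strand:
Trib3: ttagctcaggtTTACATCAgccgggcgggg
Nupr1: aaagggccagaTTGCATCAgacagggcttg

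The planned contrast of ER chaperones with ATF4 amino-acid genes was smaller than the spread between cultures. The median difference was 0.018 for the chaperones and -0.070 for the amino-acid genes, which are 0.088 apart. That gap was 0.026 without heterozygous culture 11, 0.028 without wild-type culture 10 and 0.15 without wild-type culture 16. Per culture, the mean log2 CPM of each group was taken relative to its wild-type mean, and the chaperone value minus the amino-acid value was -0.13, 0.0020 and 0.13 in wild-type cultures 10, 12 and 16. In heterozygous cultures 11, 15 and 18 it was 0.23, 0.018 and 0.035. Only heterozygous culture 11 lay above the wild-type range, and 15 and 18 lay inside it. The contrast between genotypes was 0.29 within cultures 10 to 12 and -0.099 within 15 to 18, so its sign differed between the runs. It was 0.090 among the cultures registered earlier and 0.10 in the later pair. No p-value is given, because the genes were selected with earlier results of these data known.

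For the ATF4 regulators the same scale gave 0.12, 0.019 and -0.14 in wild-type cultures and -0.32, -0.20 and -0.27 in heterozygous cultures, with all heterozygous cultures below. This makes -0.39 for cultures 10 to 12, -0.092 for 15 to 18, -0.30 among the earlier registered cultures and -0.18 in the later pair. For the other stress targets it was 0.12, 0.15 and -0.27 against -0.26, -0.16 and -0.11, with wild-type culture 16 the lowest of all. The chaperones gave -0.050, 0.0028 and 0.047 against 0.00014, 0.025 and 0.016, with the heterozygous cultures inside the wild-type range.

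**Figure D4:**
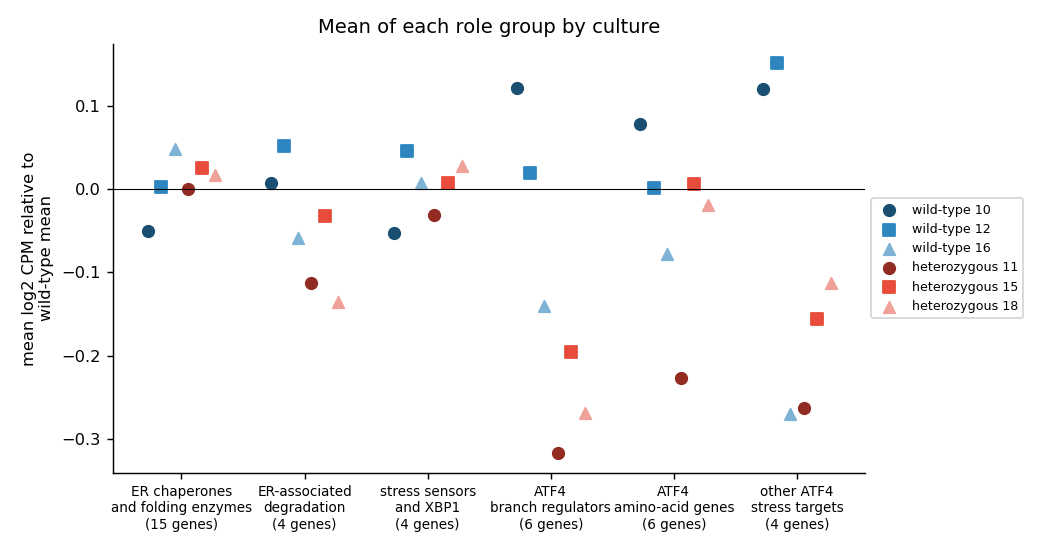
Mean log2 CPM of each role group in each culture relative to its wild-type mean, with blue marks for wild-type and red marks for heterozygous cultures. ATF4 branch regulators lie between -0.32 and -0.20 in the 3 heterozygous cultures and at -0.14 in wild-type culture 16, while the chaperones stay between -0.050 and 0.047 in all 6.

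Wild-type culture 16 decided whether any member passed. Without it edgeR called 4 of 39 genes (10.3%) lower in heterozygous cultures, beside 2.24% of all genes, and 0 of 39 higher, beside 3.69%. The 4 were Atf5 (log2 difference -0.54, adjusted p = 0.00953), Chac1 (-0.61, adjusted p = 0.0111), Trib3 (-0.72, adjusted p = 0.0207) and Herpud1 (-0.27, adjusted p = 0.0318). At an unadjusted p under 0.05 in that fit, 13 members were lower and 3 higher. The share of all genes at that threshold is not given here, so these counts have no background to be read against. The remaining wild-type cultures, 10 and 12, share a run and were registered together, and no heterozygous culture has both in common with them, so in that fit genotype cannot be told apart from run and registration combined. Leaving out any other single culture called 0 of 39, with 4 to 8 members at an unadjusted p under 0.05, again without a share over all genes. The summed fibroblast markers, given above, had the same split, with wild-type culture 16 beside all 3 heterozygous cultures, though not every single marker did. The erythroid markers placed it beside heterozygous cultures 15 and 18. The part of either in the values of the ATF4 genes was not tested.

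**Figure D5:**
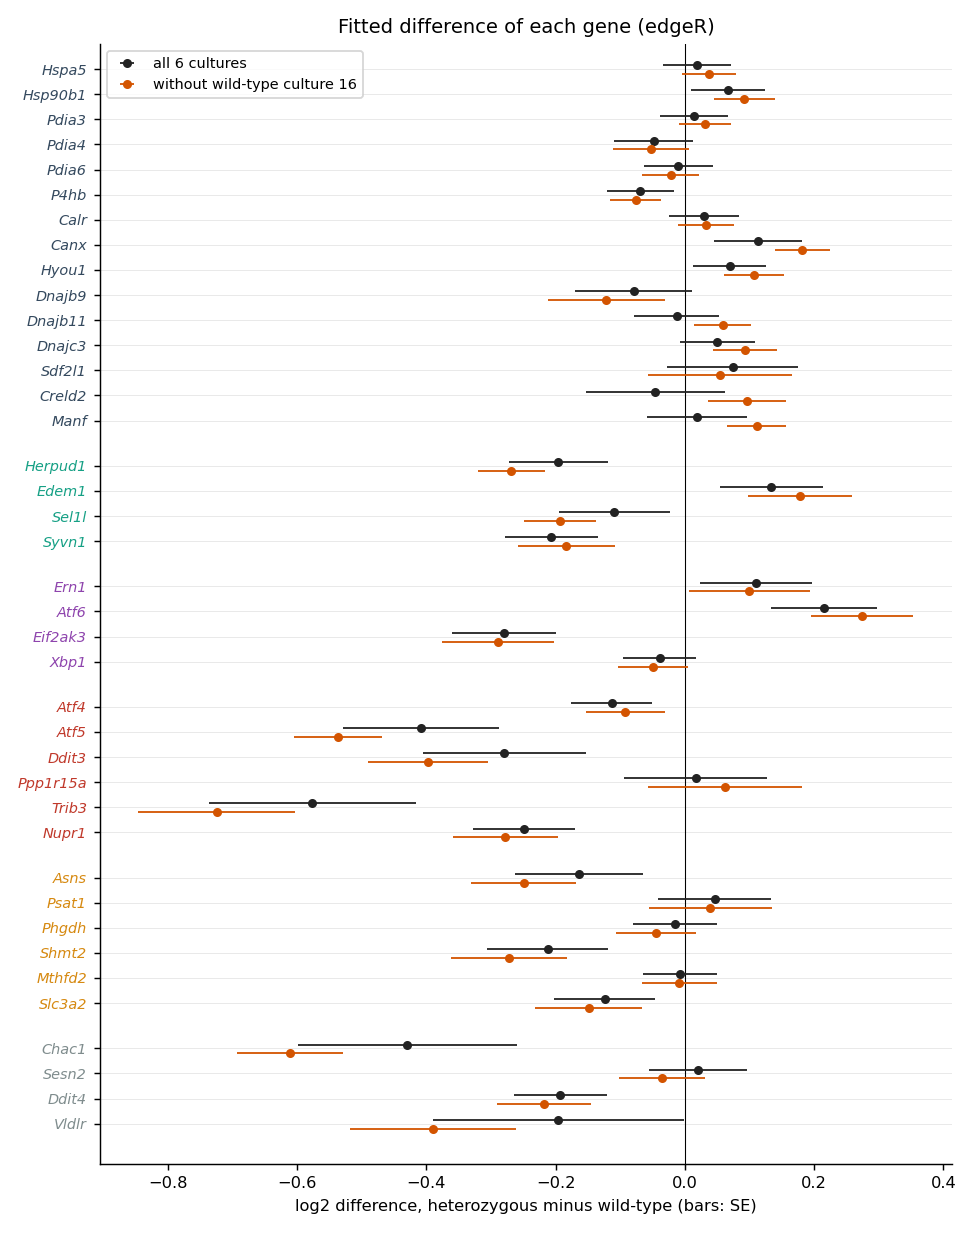
Fitted log2 difference of each gene, heterozygous minus wild-type, with SE bars, from all 6 cultures (black) and without wild-type culture 16 (orange). Trib3 moves from -0.58 to -0.72, Atf5 from -0.41 to -0.54 and Chac1 from -0.43 to -0.61, while Eif2ak3 stays at -0.28 and -0.29.

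Other genes of the same pathways, from lists beyond the 39, gave no call in edgeR over all 6 cultures. Among 50 tested genes of ER folding, translocation and degradation, 0 passed in edgeR, and the median log2 difference was -0.043. At an unadjusted p under 0.05, 6 had a lower and 3 a higher level, beside 6.65% and 5.56% of all genes. Without wild-type culture 16, 4 passed as lower and 1 as higher, beside 2.24% and 3.69% of all genes. The smallest p belonged to Sil1, the nucleotide exchange factor of BiP, which was at 16.8, 19.4 and 17.5 CPM in wild-type and 13.3, 12.2 and 14.2 CPM in heterozygous cultures. The groups did not overlap, at -0.43 (SE 0.11, adjusted p = 0.313), and the difference was -0.43 and -0.41 within the runs. The prolyl isomerase genes Fkbp14 (-0.31, SE 0.084) and Fkbp7 (-0.31, SE 0.090) followed. Among 43 tested genes of the integrated stress response, amino-acid transport and tRNA charging, 0 passed, and the median was -0.048. At an unadjusted p under 0.05, 5 were lower and 2 higher, beside the same 6.65% and 5.56% of all genes. DESeq2 called 1 of these 43 as lower, Pck2 (adjusted p = 0.0426), named here after its value was seen. It gave no adjusted p for 13 of the 43. Of all genes for which it gave one, it called 1.92% in either direction. Without wild-type culture 16 edgeR called 8 lower and 1 higher, beside 2.24% and 3.69% of all genes. Slc7a1, a cationic amino-acid transporter, was at 108, 104 and 111 CPM against 117, 127 and 135 CPM, a log2 difference of 0.23 (SE 0.065, adjusted p = 0.313). The glycine transporter gene Slc6a9 (-0.57, SE 0.16) and the proline synthesis gene Pycr1 (-0.47, SE 0.14) were lower, and heterozygous culture 11 was the lowest culture for 25 of the 43 genes.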

How the data were processed

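The authors deposited 1 table of RSEM gene estimates per library, per the file headers, with expected counts, TPM and effective lengths. Per the submitters' processing notes the tools included RSEM 1.3.1 and DESeq2 and the build was mm10. The aligner, annotation release and strand setting were not given in the sources used here. Deposited expected counts are estimated reads per gene, of which 7.53% to 8.80% were not whole, and they were rounded. Deposited TPM values, scaled by the authors' RSEM run for length and library size, were used for levels and 1 alternative.

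Ensembl numbers were matched to symbols of GENCODE M21 on GRCm38, which is mm10, giving a symbol for 51633 genes. Genes passing filterByExpr (14652) were scaled by TMM and compared over 6 libraries with edgeR 4.0.16 in R 4.3.3 (glmQLFTest, no covariates, Benjamini-Hochberg adjustment over all genes, called under 0.05). CPM values use library totals and TMM factors. SE values belong to the fitted log2 difference, and group means use log2 CPM with a prior count of 2. Exons of 12 members overlap another gene, so their counts are less certain. They are Hsp90b1, Pdia3, Pdia4, Pdia6, Dnajb9, Manf, Syvn1, Eif2ak3, Atf5, Ddit3, Ppp1r15a and Shmt2. The steps were tested on simulated counts. Alternatives were library totals, no filter, an effective length offset, terms for run, registration and sex, DESeq2 1.42.0, limma 3.58.1 on log2(TPM + 1), and leaving out each culture.

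The members, roles and lists were chosen with earlier results of these data known. Values in every culture are given for Hspa5, Xbp1, Atf4 and Ddit3 and for up to 3 members per role with the smallest unadjusted p, and for up to 3 genes of each further list. Other members singled out, such as Creld2, Manf and Sel1l, were chosen after their values were seen. Promoters are RefSeq windows of 300 bases, and 36 members matched by symbol. The lowest count of any member in a library was 173. The common biological coefficient of variation, fitted over all genes tested, was 11.3%. Counting error was not compared with the spread of single members.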

Additional observations from a re-analysis of the deposited data

How the results depend on the processing

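No paired analysis was possible because the genotypes share no culture number. The 39 genes gave 0 calls in the fit as designed and under every alternative except leaving out wild-type culture 16, so leaving out 1 culture gave 0 to 4. Over all genes the count of 1 became 32 without a low-count filter, 112 in DESeq2, 0 with the effective length offset and 0 with limma on TPM, and 0 to 896 when 1 culture was left out. Lztr1 kept its direction throughout. Its log2 difference was -0.91 with the effective length offset and -0.92 with TPM, no longer past the threshold in either, and ran from -1.06 to -0.97 with 1 culture left out, where it passed only without wild-type culture 16. Of 22 members with values in every culture 19 kept their sign in all 14 alternatives. The exceptions were Hspa5 (-0.0056 with library totals), Edem1 (-0.055 with the length offset and -0.072 with TPM) and Vldlr (0.017 without wild-type culture 10, the highest, and -0.39 without 16, the lowest, when 1 culture was left out). Members outside the 22 were not counted in this way, and several of them also changed sign. Ppp1r15a turned from 0.017 to -0.17 with TPM, and Psat1 from 0.046 to -0.0048 with a run term. Without wild-type culture 16, Creld2 turned from -0.046 to 0.096, Dnajb11 from -0.013 to 0.058 and Sesn2 from 0.019 to -0.036. The chaperone, amino-acid and contrast medians moved by less than their wild-type SD in all alternatives. Each of these medians was itself smaller than that SD, so this does not show that they were stable. Without heterozygous culture 11 the contrast fell to 0.026 and the amino-acid median to -0.011. With library totals the chaperone median changed sign, to -0.0056. With 3 cultures per genotype the SE of a chaperone's log2 difference was 0.052 to 0.11. Differences below that size were not resolvable, and larger ones could also be missed. Canx, at 0.11 (SE 0.068), had an adjusted p of 0.520 by edgeR.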

Other observations

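Several genes of the integrated stress response outside the 39 showed the arrangement of Atf5 and Chac1, with wild-type culture 16 beside the heterozygous cultures. They were picked after their values were seen. Pck2, the mitochondrial enzyme that makes phosphoenolpyruvate, had wild-type levels of 137, 133 and 87.6 CPM (cultures 10, 12, 16) and heterozygous levels of 72.8, 83.2 and 88.2 CPM (cultures 11, 15, 18). Its log2 difference was -0.56 (SE 0.16) with an adjusted p of 0.313 in edgeR and 0.0426 in DESeq2, and it was -0.89 within cultures 10 to 12 and -0.033 within 15 to 18. The cationic amino-acid transporter gene Slc7a3 was at 23.7, 25.9 and 14.9 CPM against 12.5, 14.2 and 14.9 CPM, with -0.98 and -0.033 within the runs. Gpt2, a mitochondrial alanine transaminase, was at 64.2, 59.4 and 46.0 CPM against 39.95, 45.7 and 49.7 CPM. Creb3, an ER-bound transcription factor, had the same grouping in the other direction, at 54.0, 53.6 and 66.6 CPM against 69.6, 66.4 and 68.3 CPM.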
